A study of Mus musculus with 4 samples.

Results

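The erythroid membrane and haem synthesis genes are a group of 8 genes of the red cell lineage (Alas2, Slc4a1, Epb42, Klf1, Rhag, Ermap, Hemgn and Ahsp). Members were found as all probe sets annotated to exactly 1 gene symbol, that symbol being one of the 8. This gave 10 of the 45101 probe sets on the array and 7 of the 8 genes, among 18193 genes with such a probe set. Ahsp was not analysed here. A filter on dim probe sets left 7 member probe sets of 6 genes for testing, and Epb42 did not pass it.

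The tested tissue was whole ureter of postnatal day 1 male FVB/N mice (Theiler stage 27) that carried an SMGA/EGFP transgene, named after smooth muscle gamma-actin, on 3 arrays of samples that were not pooled. The reference was a pool of whole postnatal day 1 FVB/N mice of both sexes with no transgene reported, on 1 array. Tissue, transgene, sex and pooling therefore change together and cannot be told apart. Ureters were cut free of kidney and bladder and frozen, RNA of all 4 samples went through 2 rounds of amplification, and nothing in the labels describes a step that removes blood. Whether different animals gave the 3 ureter samples is not stated. The p-values therefore reflect the scatter among these 3 arrays, possibly technical, and the lone reference array was assumed to vary like the ureters. In whole tissue, fewer red cells and less RNA per red cell cannot be told apart.

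Red cells mature from erythroblasts, which in a newborn mouse sit mainly in liver, spleen and bone marrow. A young red cell that enters the blood still carries RNA for a short time after it loses its nucleus. Alas2 makes the first enzyme of haem synthesis in this lineage, while Slc4a1 (the anion exchanger band 3), Epb42 (protein 4.2) and Rhag (the Rh-associated glycoprotein) belong to membrane complexes that tie the red cell surface to its skeleton. Ermap is a surface protein of the erythroid membrane that carries the Scianna blood group in humans. Klf1 is a transcription factor of the lineage, Hemgn (hemogen) a nuclear protein of blood-forming cells, and Gata1, not a member, the factor whose GATA motif occurs in many erythroid genes.

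Promoter sequences from RefSeq (build GRCm38.p6) were matched for 6 members: Alas2, Epb42, Klf1, Rhag, Ermap and Hemgn. In the 250 bases before the start site, a GATA motif (the letters GATA preceded by A or T and followed by A or G, on either strand) occurred in 6 of these 6 windows, against 26.5% of all 32851 promoter windows of the same length. The matches began 86 bases before the start in Alas2, 226 in Epb42, 80 in Klf1, 31 in Rhag, 67 in Ermap and 13 in Hemgn. These letters are a description of the windows and show no binding. The stretches below are given because the GATA match is the feature these promoters share; each is 60 bases, 5′ to 3′ on the gene's own strand, with the match in capitals. The Rhag stretch overlaps the annotated span of Rhag itself, which begins upstream of the start site used here, and is not printed.
Alas2, chrX:150547304-150547363, plus strand: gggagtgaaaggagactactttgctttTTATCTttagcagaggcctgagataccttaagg
Epb42, chr2:121037068-121037127, minus strand: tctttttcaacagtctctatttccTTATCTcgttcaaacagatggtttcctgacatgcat
Klf1, chr8:84901875-84901934, plus strand: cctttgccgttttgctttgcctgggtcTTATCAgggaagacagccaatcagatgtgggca
Ermap, chr4:119190030-119190089, minus strand: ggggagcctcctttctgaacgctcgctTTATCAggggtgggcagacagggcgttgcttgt
Hemgn, chr4:46404184-46404243, minus strand: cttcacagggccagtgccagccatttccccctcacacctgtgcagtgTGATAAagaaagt

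A motif of the factor family that includes Klf1 (CCNCNCCC on either strand) occurred in 2 of the 6 windows, Alas2 and Hemgn, against 45.9% of all promoter windows. Its stricter form CCACACCC occurred in 0 of the 6, against 3.2% of all. The Hemgn matches overlap within 1 run of G. Those of Alas2 lie in a G-rich stretch downstream of its GATA match; 3 of the 4 overlap one another, and none overlaps that match. They are in capitals in the last 60 bases before the Alas2 start.
Alas2, chrX:150547357-150547416, plus strand: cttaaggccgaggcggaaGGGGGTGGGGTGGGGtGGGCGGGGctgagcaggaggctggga

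The members that passed the test were lower in the ureters than in the newborn body. Intensities below are quantile normalized, and an array's background is the highest of 27 probe sets for bacterial transcripts that had not been added. It lay at 94.2, 188 and 133.6 in ureter replicates 1, 2 and 3 and at 126.8 in the reference. Of the 6 tested members, 4 passed limma's adjusted p of 0.05 as lower (Alas2, Slc4a1, Ermap and Hemgn), 0 passed as higher and 2 did not pass (Klf1 and Rhag). Across all 13714 genes tested, 4.75% passed as lower. For all 6 tested members every ureter lay below the reference, as it did for 31.5% of all genes. By probe set, 5 of the 7 tested were lower, against 3.42% of all tested. Every ureter lay below the reference for all 7 tested, against 30.1% of all tested. With the untested member probe sets, which were above background in no ureter, it did so for 9 of the 10. The members' median log2 difference, ureter minus reference, was -3.54, against 0.10 over all genes. Klf1, Rhag and Hemgn had ureter means under the filter's intensity threshold of 153 and cleared it through their reference value, so the count and median over tested members describe them and support nothing further.

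**Figure D1:**
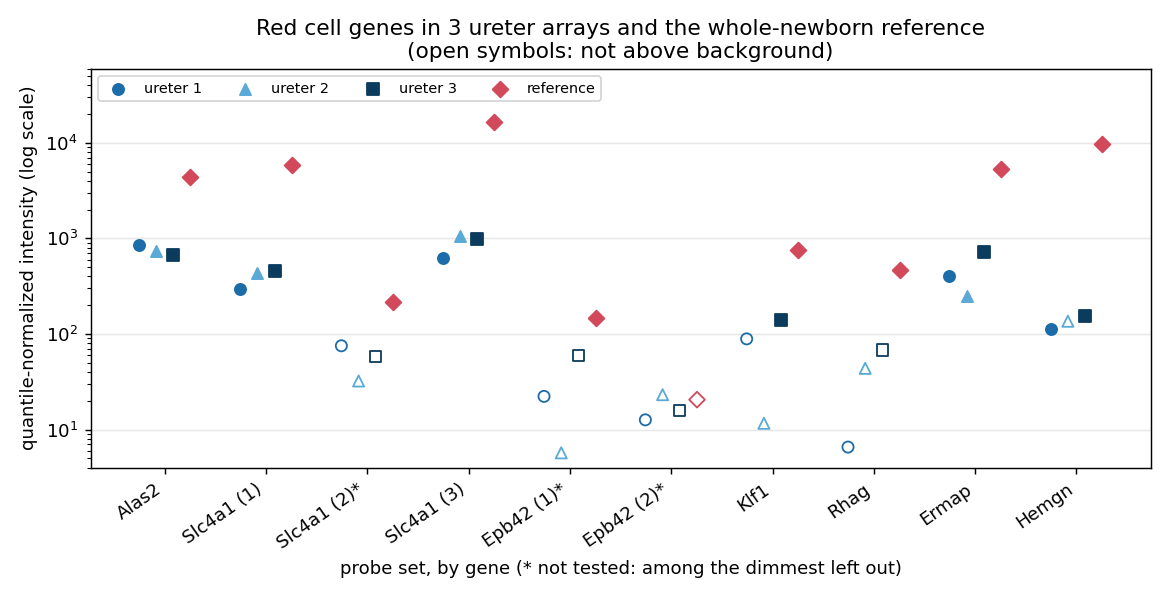
Quantile-normalized intensity (log axis) of the 10 member probe sets in 3 ureter arrays (circle, triangle and square) and the reference (diamond), with open symbols for values not above the array's background. The reference stands above every ureter for 9 of the 10 probe sets, the exception being a dim probe set of Epb42.

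Alas2, the erythroid enzyme at the start of haem synthesis, kept the largest mean share of the reference signal among the 6 tested genes. In ureter replicate 3 alone, Klf1 kept more (18.4%) than Alas2 (14.98%). Its intensity was 851, 731 and 666 in ureter replicates 1, 2 and 3, against 4445 in the reference. The 3 ureters lay close together, well above background and all below the reference. The log2 difference was -2.56 ± 0.39 (SE, n = 3 against 1), or 5.88-fold lower, with limma adjusted p = 0.0230. Without ureter replicate 3 the difference was -2.43 and the call was lost (adjusted p = 0.113), and it was lost with arrays centred on their median (-1.81, adjusted p = 0.133).

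Slc4a1, the band 3 anion exchanger that is also made in the acid-secreting intercalated cells of the kidney, was measured by 3 probe sets. The brightest read 624, 1048 and 978 in the ureters, against 16570.1 in the reference. Its _x_at suffix marks probes that can bind related transcripts. The log2 difference was -4.25 ± 0.44, or 19.0-fold lower (adjusted p = 0.0101). A second probe set without that suffix read 296, 434 and 451 in the ureters, against 5936 in the reference. It gave -3.90 ± 0.45, or 14.9-fold lower (adjusted p = 0.0133), and differed from the brightest by less than 1 SE. The third was too dim to be tested: its ureter values of 75.2, 32.2 and 57.7 were not above background, against 213.8 in the reference, which gives a bound of at least 1.55-fold lower. Slc4a1 kept its call without each ureter in turn, with adjusted p = 0.0494 without ureter replicate 3.

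Ermap read 401, 252 and 718 in the ureters, against 5355 in the reference. All 3 ureter values were above background, and the highest was 2.85 times the lowest. The log2 difference was -3.64 ± 0.63, or 12.5-fold lower (adjusted p = 0.0290). The call was lost without ureter replicate 3 (-3.93, adjusted p = 0.0656), with no filter on dim probe sets (adjusted p = 0.0524) and without an intensity trend (adjusted p = 0.0632).

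Hemgn, the nuclear protein gene, read 113, 136 and 154 in the ureters, against 9840.3 in the reference. Ureter replicates 1 and 3 lay just above background and replicate 2 below it, so the ureter signal was close to what the arrays can tell from none. As Hemgn entered the test through its reference value, it had to differ, and its fold and p describe that contrast. The log2 difference was -6.08 ± 0.48, or 67.7-fold lower (adjusted p = 0.00576). It passed without each ureter in turn, with adjusted p = 0.0336 without ureter replicate 3.

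Klf1 and Rhag did not pass the threshold. Klf1 read 88.9, 11.6 and 141 in the ureters, against 762 in the reference, and only ureter replicate 3 was above background. Its log2 difference was -3.43 with a 95% interval of -6.33 to -0.53 (adjusted p = 0.146). Rhag read 6.55, 43.7 and 68.1 in the ureters, against 462 in the reference. No ureter was above background for Rhag, so its fold is a bound of at least 3.25-fold lower (adjusted p = 0.154). The highest ureter was 12.1 times the lowest for Klf1 and 10.4 times for Rhag, mostly among values not above background.

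Epb42, which encodes the membrane protein 4.2, was too dim to be tested. Its brighter probe set read 22.2, 5.70 and 59.0 in the ureters, none above background, against 148 in the reference. The bound is at least 1.10-fold lower. Its other probe set read 12.6, 23.2 and 15.7 in the ureters, against 20.5 in the reference, and was above background on no array. When the filter was removed, the brighter probe set gave -2.18 (adjusted p = 0.294).

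**Figure D2:**
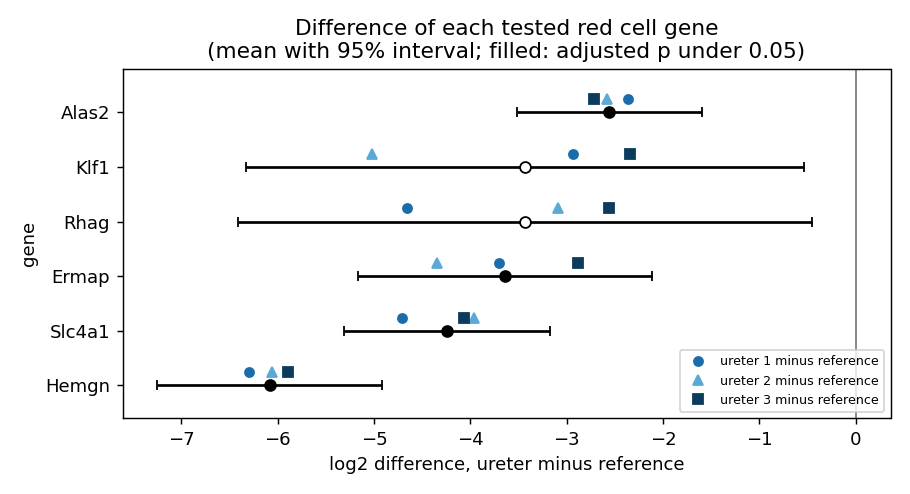
Log2 difference, ureter minus reference, for the 6 tested genes: mean and 95% interval from limma (filled where adjusted p was under 0.05) with each ureter's own difference above it. The interval is -3.51 to -1.60 for Alas2 and -7.25 to -4.91 for Hemgn, which entered the test through its reference value. Those of Klf1 and Rhag span most of the range.

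The share of the reference intensity kept in the ureters was read member by member. Alas2 intensity in the ureters was 16.9% ± 2.11 of the reference (SD, n = 3), with 19.1%, 16.4% and 14.98% in ureter replicates 1, 2 and 3. Ermap was at 8.53% ± 4.45 of its reference intensity, and Slc4a1 at 5.33% ± 1.37 by its brightest probe set and at 6.63% ± 1.43 by the second. Hemgn was at 1.37% ± 0.21, with 1.15%, 1.38% and 1.56% in the 3 ureters. In each ureter, then, Alas2 kept a larger share of its reference signal than Slc4a1 did, and Slc4a1 a larger share than Hemgn. The 95% intervals of the log2 differences were -3.51 to -1.60 for Alas2, -5.31 to -3.18 for Slc4a1 and -7.25 to -4.91 for Hemgn. All use the same reference array, and Hemgn entered the test through its reference value, so their overlap does not compare the genes. These shares hold any background signal, and those of Klf1 (10.5% ± 8.51) and Rhag (8.53% ± 6.70) rest mostly on values not above background. No test was made between the members' shares.

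**Figure D3:**
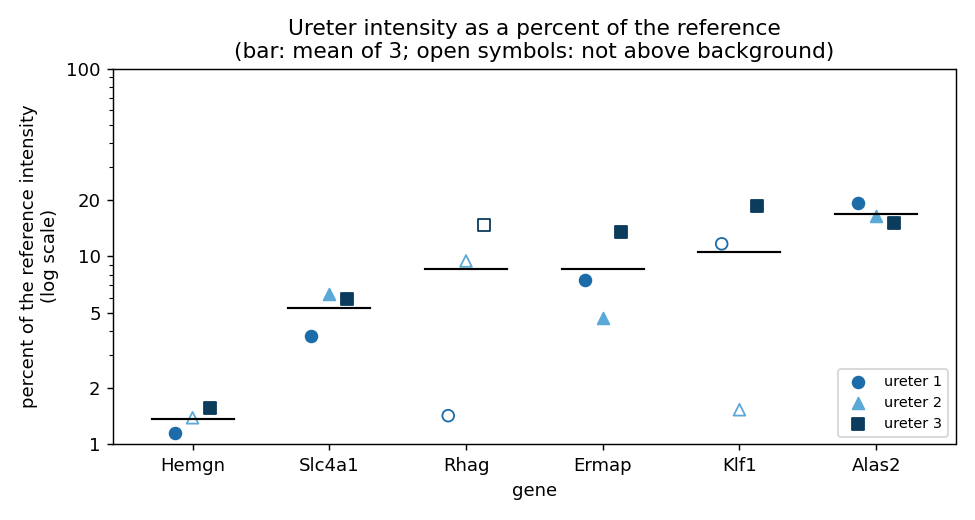
Ureter intensity as a percent of the reference intensity (log axis) for the 6 tested genes, 1 symbol per ureter, with open symbols for values not above background and a bar at the mean of 3. Hemgn sits at 1.15% to 1.56% and Alas2 at 14.98% to 19.1%.

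Once quantile normalized, the spread between ureters was smallest for Alas2 and Hemgn among the 6 tested members and largest for Klf1. As deposited, the highest ureter over the lowest was 1.25 for Alas2, 2.10 for Slc4a1 and 2.25 for Hemgn. It was 2.37 for Ermap, 7.85 for Klf1 and 12.3 for Rhag, so this order changed with the scaling. The values of Hemgn, Klf1 and Rhag lay near or below background. The SD of log2 values over the 3 ureters was 0.18 for Alas2, 0.20 for Hemgn, 0.40 for Slc4a1, 0.74 for Ermap, 1.09 for Rhag and 1.41 for Klf1. The median was 0.57, against 0.33 over all genes tested. No ureter was the highest for every member. After quantile normalization ureter replicate 3 was the highest for 4 of 6 members, replicate 1 for 1 (Alas2) and replicate 2 for 1 (Slc4a1). In the intensities as deposited, replicate 2 was the highest for 4, replicate 3 for 2 and replicate 1 for 0. The median share of the reference was 5.63%, 5.51% and 14.1% in ureter replicates 1, 2 and 3 when normalized and 4.55%, 6.11% and 10.002% as deposited. These tallies and medians include Rhag, Klf1 and Hemgn, which were above background in 0, 1 and 2 ureters, and the ureter most often highest changed with the scaling.

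Globins, the oxygen carriers of the red cell, could be read only in part. Of 9 globin genes listed 6 had a probe set of their own, 2 were tested and 0 passed. The 4 probe sets annotated to more than 1 globin gene were not used. Hbb-b2 read 332, 761 and 658 in the ureters, against 3251 in the reference (-2.54 ± 0.57, adjusted p = 0.0565). Its second probe set gave -0.05 (adjusted p = 0.961). Hbb-y, the embryonic beta-like globin, read 239, 79.3 and 265 in the ureters, against 801 in the reference (-2.13 ± 0.79, adjusted p = 0.166). Another tested probe set of Hbb-y gave -2.60 (adjusted p = 0.249). One more, too dim to be tested, read 6.69, 16.7 and 13.4 in the ureters, against 5.70 in the reference. It was above background on no array. Globin genes are near-identical copies, and the probe sets that gave these differences carry the suffix for related transcripts, so which globin they report is uncertain.

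Most other tested genes of the red cell membrane did not pass. Of 17 listed 14 were tested, 2 were lower, 1 was higher and 11 did not pass. Across all genes tested 4.75% were lower and 3.24% higher. The median of the list was -1.13. Rhd, a partner of Rhag in the Rh complex, read 155, 316 and 216 in the ureters, against 3364 in the reference. It was lower by -3.86 ± 0.55 (adjusted p = 0.0192). Ank1, the ankyrin that anchors band 3 to spectrin, was lower by -2.20 ± 0.40 (adjusted p = 0.0331), while a dimmer probe set gave at least 6.34-fold lower without passing (adjusted p = 0.0514). Xk, the membrane partner of the Kell protein, was higher: it read 655, 1510 and 521 in the ureters, against 23.8 in the reference. The reference was not above background, so Xk was at least 5.86-fold higher (adjusted p = 0.0240). Xk cleared the filter through its ureter values, so it had to differ, and its fold and p describe that contrast. It was not tested with probe sets averaged or with the dimmest 60% left out. Cd47 (0.32 ± 0.30) and the spectrin gene Sptb (-0.47 ± 0.60) did not pass. Without ureter replicate 3 none of the 3 calls held (adjusted p = 0.0807 to 0.120), and Ank1 was also lost with median-centred arrays (adjusted p = 0.215), no filter (0.0501) and no intensity trend (0.0588).

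The other haem enzymes are used by every cell. Of 8 listed 7 were tested, 1 was lower and 6 did not pass, with a median of -0.97. Here and for the iron genes below, the share lower over all genes tested was 4.75%. Fech, which inserts iron into the ring, was lower by -1.67 ± 0.23 (adjusted p = 0.0171). Its 2 dimmer tested probe sets gave -1.34 (adjusted p = 0.0782) and -0.83 (adjusted p = 0.376). Alas1, which catalyses the same step as Alas2 in all tissues, read 1839, 2468 and 2675 in the ureters, against 5342 in the reference (-1.21 ± 0.37, 95% interval -2.12 to -0.30, adjusted p = 0.115). Its second probe set gave 0.10. Cpox (0.09) and Ppox (0.75) did not pass. Of 15 tested genes of haem and iron handling 2 were lower, the mitochondrial iron importer gene Slc25a37 (-2.22 ± 0.36, adjusted p = 0.0256) and the haem exporter gene Flvcr1 (-1.93 ± 0.34, adjusted p = 0.0304); 13 did not pass, Slc25a38 (0.07) and Blvra (0.20) among them, and the median was -0.69. A second probe set of Flvcr1 gave 0.22 (adjusted p = 0.854). Fech, Slc25a37 and Flvcr1 lost their calls without ureter replicate 3 (adjusted p = 0.0989, 0.122 and 0.142), with median-centred arrays (0.327, 0.228 and 0.332) and with no intensity trend (0.0751, 0.0527 and 0.0632). Fech and Flvcr1 also lost them when probe sets were averaged (0.124 and 0.172).

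Among 12 tested transcription factors of the lineage 2 were lower, against 4.75% of all genes tested, and 10 did not pass. The median was -1.73. Myb, a factor of immature blood cells, read 356, 574 and 471 in the ureters, against 6813 in the reference, and was lower by -3.86 ± 0.45 (adjusted p = 0.0133). Its dimmer probe sets gave -3.38 (adjusted p = 0.0577) and -2.37 (adjusted p = 0.0693). Bcl11a, a repressor of embryonic globins that neurons and lymphocytes also express, was lower by -2.83 ± 0.46 (adjusted p = 0.0255). Gata1 read 122, 142 and 183 in the ureters, against 696 in the reference, and did not pass (-2.15 ± 0.60, adjusted p = 0.0923). Lyl1 (0.22) and Zfpm1 (-0.35) did not pass. Without ureter replicate 3 Myb (adjusted p = 0.0675) and Bcl11a (0.115) lost their calls, and Bcl11a did so with median-centred arrays (0.0582).

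Of 16 other tested erythroid genes 5 were lower, against 4.75% of all genes tested, and 11 did not pass. The median was -1.32. The carbonic anhydrase gene Car2, which many tissues express, was lower by -3.30 ± 0.59 (adjusted p = 0.0322), and Trim10, a gene of late erythroblasts, by -2.59 ± 0.48 (adjusted p = 0.0337). Isg20 (-2.33 ± 0.49, adjusted p = 0.0479) and Tspan33 (-2.14 ± 0.42, adjusted p = 0.0390) were lower too. The erythropoietin receptor gene Epor (0.82 ± 0.65, adjusted p = 0.487), Cpeb4 (-0.14) and Aqp1 (0.21) did not pass. Without ureter replicate 3 the 4 calls named were lost (adjusted p = 0.119 to 0.164), and they were lost with median-centred arrays, with no filter and with no intensity trend (0.0545 to 0.210). Trim10 (0.0627) and Tspan33 (0.0602) were also lost in the intensities as deposited, Tspan33 without ureter replicate 1 (0.0518) and with probe sets averaged (0.103), and Isg20 with an offset of 1 (0.0517) and with the dimmest 20% left out (0.0613).

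**Figure D4:**
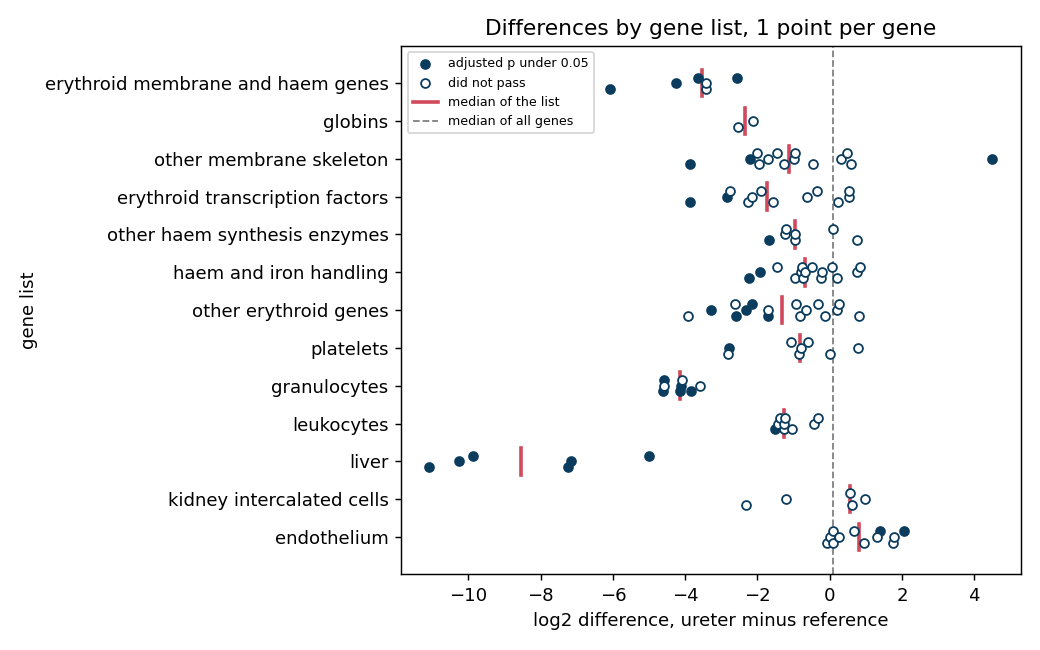
Log2 difference, ureter minus reference, of each tested gene (1 point per gene, filled where adjusted p was under 0.05) in the member list and in lists of red cell, blood, liver, kidney and vessel genes, with each list's median in red and the median of all genes (0.10) dashed. The medians run from -8.55 for liver to 0.82 for endothelium, with the members at -3.54. The liver, granulocyte and member lists hold genes that cleared the filter through their reference value.

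Markers of other cells moved as follows, and their part in the differences of the red cell genes was not tested. Of 8 tested granulocyte genes 5 were lower, against 4.75% of all genes tested, with a median of -4.14. Every ureter lay below the reference for all 8, against 31.5% of all genes. Prtn3 was above background in no ureter and cleared the filter through its reference value, so it had to differ. The count of 8 and the median include it. The summed intensity of the 8 genes was 1443 to 4299 in the ureters, against 48126 in the reference. S100a8, an abundant neutrophil protein gene, read 385, 575 and 1337 in the ureters, against 16583 in the reference (-4.61 ± 0.69, adjusted p = 0.0218). Without an intensity trend it did not pass (adjusted p = 0.0554). Ureter replicate 3 had the highest granulocyte sum, also as deposited (984, 2273 and 3938 in replicates 1, 2 and 3, against 45984). Of 9 leukocyte genes 1 was lower and the sum was 16150.2 to 20203 in the ureters, against 45388 in the reference. That gene, Csf1r (-1.51 ± 0.26), read 8665, 10527 and 7929 in the ureters, against 25626 in the reference, a large part of each sum. Csf1r lost its call without ureter replicate 3, with median-centred arrays, with no filter, with no intensity trend and with probe sets averaged. The leukocyte median was -1.25. Every ureter lay below the reference for all 9, as it did for 31.5% of all genes tested. Of 8 platelet genes 1 was lower, with sums of 11539 to 14881 in the ureters and 16988 in the reference, in both groups mostly from Pf4 (-0.01 ± 0.27). The median was -0.82 and every ureter lay below the reference for 6 of the 8. The gene called was Ppbp, which encodes a platelet chemokine (-2.78 ± 0.55, adjusted p = 0.0415). Ppbp did not pass without ureter replicate 3 (adjusted p = 0.158), with median-centred arrays (0.118), with no filter (0.0707), with the dimmest 20% left out (0.0531) or with no intensity trend (0.0757). Of 6 liver genes, which mark the main blood-forming organ of the newborn, 6 were lower. Their sums were 3440.2 to 4017 in the ureters and 367802 in the reference. Ahsg, Apoa1 and Fgb were above background in no ureter. They cleared the filter through their reference value and had to differ, so the liver count and median describe these genes and support nothing further. Of 12 endothelial genes 0 were lower and 2 higher, with sums of 34237 to 37289 in the ureters and 21995 in the reference. No marker was listed at 0.

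Because Slc4a1 is also a kidney gene, a list of markers, mostly of intercalated cells, was read beside it. Of 10 listed 5 were tested and 0 passed, with sums of 4108 to 8751 in the ureters and 4619.7 in the reference and a median of 0.57. The sums came mostly from Slc26a7, with 3243, 6532 and 4687 in ureter replicates 1, 2 and 3 and 3038 in the reference. Rhbg (0.57, adjusted p = 0.621) and Slc26a7 (0.61, adjusted p = 0.451), transporter genes of these cells, were above background in all 3 ureters. Atp6v1b1, a proton pump gene of these cells, was above background in no ureter (24.5, 174 and 40.2, against 344 in the reference). Foxi1, their defining factor, was above background on no array. Atp6v1b1 and Foxi1 were chosen after their values were seen.

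The genes whose 3 differences lay nearest to the members' median profile (-4.18, -4.16 and -2.80 in ureter replicates 1, 2 and 3) were Brsk2, Camp, Onecut2, Fgf6, Atp2b2 and Myo1a, at Euclidean distances of 0.38 to 0.50 on the log2 scale over 3 ureters. Brsk2, Onecut2, Fgf6 and Myo1a were above background in 0 ureters and Atp2b2 in 1, so their order in this ranking is not measured. The members' profile also rests partly on values not above background. It includes Rhag, Klf1 and Hemgn, which were above background in 0, 1 and 2 ureters and cleared the filter through their reference value. The nearest member, Ermap, lay at 0.52 and Hemgn at 4.20. Camp, an antimicrobial peptide gene of neutrophils, was lower by -3.83 ± 0.69 (adjusted p = 0.0315) and lost its call without ureter replicate 3 (adjusted p = 0.0595), with no filter (0.0597) and with no intensity trend (0.0657).

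The labelled tissue was checked by its markers. Of 9 urothelial genes 8 were higher in the ureters and of 9 ureter smooth muscle and mesenchyme genes 8 were. Over all probe sets, 925 of 27022 (3.42%) were lower and 795 (2.94%) higher. The ureter arrays correlated with each other at 0.92 to 0.95 across probe sets and with the reference at 0.85 to 0.86. The ratio of 3' to 5' probe sets of Gapdh was 16.6 to 21.6 in the ureters and 19.8 in the reference, and 53.8% to 66.7% of probe sets in the ureters and 61.2% in the reference lay above background.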

How the data were processed

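Transcripts were measured on Affymetrix MOE430 arrays. The deposited values are linear intensities, 1 per probe set and array, that the authors had scaled to a common trimmed mean of 1500; the submitters' processing notes name GCOS. The background subtraction is not described in these sources. Detection calls were not used. Control probe sets (64) were left out, arrays were quantile normalized because their medians spanned 1.11 on the log2 scale, and log2(intensity + 12.23) was taken, the offset being the 10th percentile; this understates changes of dim genes. The dimmest 40% of probe sets, by the average of ureter mean and reference, were left out. Differences were tested with limma 3.58.1 in R 4.3.3 (lmFit, eBayes with an intensity trend, 2 residual degrees of freedom, Benjamini-Hochberg over 27022 probe sets, two-sided). The test was checked on simulated data. The brightest tested probe set stood for its gene, with symbols from the platform annotation (34945 probe sets with 1 symbol, 932 with several, 9160 with none). Where no ureter, or not the reference, was above background, folds are bounds against that background. The number of arrays limits the precision.

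Members, gene lists and tests were chosen with earlier results of these data known. Named genes are the members, per list at most 4 genes past the threshold, by size of change, and the 2 that changed least, and Alas1, Gata1 and Epor; Atp6v1b1 and Foxi1 fall outside this rule. The 6 genes nearest in profile were taken by Euclidean distance. Genes of lists that only describe other tissues are given as counts. Alternatives were scaling, offset, filter, variance trend, averaging of probe sets and each ureter left out.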

Additional observations from a re-analysis of the deposited data

How the results depend on the processing

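The difference of each tested member kept its negative sign under every alternative that tested it (12 for Alas2, Slc4a1, Ermap and Hemgn, 11 for Klf1 and Rhag). Hemgn, Klf1 and Rhag cleared the filter through their reference value. Their signs, and the passes of Hemgn given below, describe that contrast and support nothing further. Slc4a1 and Hemgn passed under all 12, Alas2 under 10 and Ermap under 9, while Klf1 (adjusted p = 0.0671 to 0.238) and Rhag (0.0709 to 0.287) passed under none. Leaving out each ureter in turn gave 2 to 4 member genes and 2 to 5 member probe sets lower, and over all probe sets 220 to 1182 lower and 42 to 965 higher; the low end of each came without ureter replicate 3, which leaves 1 residual degree of freedom, as does leaving out either other ureter. The 2 genes left were Hemgn and Slc4a1, when 1.3% of all genes were lower. The probe sets higher in the ureters numbered 438 as deposited, 411 with no filter and 335 without an intensity trend; the cause was not tested. Among the other red cell lists, calls of lower genes in 5 lists went to 0 without ureter replicate 3, and globins gave 1 with an offset of 50, with the dimmest 60% left out and without ureter replicate 1 or 2. Over all probe sets the median difference was 0.11 in the reported setting, -0.15 for deposited intensities and 0.63 after centring on medians; differences of that size move with the scaling. No paired analysis was possible because the labels give no replicate numbers and the reference has 1 array. Signal over background limits Rhag, Klf1, Epb42 and Hemgn in the ureters.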
